A study of Mus musculus with 24 samples.

Results

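The genes described here mark the stages and niches of splenic B cells. They are 10 genes chosen by name out of 55414 in the deposited RNA tables: the follicular and marginal zone receptors Cr2, Fcer2a, Cxcr5, Cd1d1 and Cd9, the Notch pathway genes Notch2 and Dtx1, and the genes of immature B cells Vpreb3, Cd93 and Cd24a. They were read in 8 RNA-seq libraries of whole spleen from BALB/c mice, 4 titled control and 4 titled CT-26, the latter being a colon carcinoma line of the same strain that was injected into the right side of mice aged 8 weeks. The treatment field runs against the titles, since libraries titled control carry the label for injected cells and libraries titled CT-26 the label for healthy mice. The sets are therefore named by title, differences are not read as an effect of a tumour, and a positive fold change means a higher value in the set titled CT-26. All 8 libraries share the strain and the tissue, and the sources used here do not give the sex of the mice, the time after injection or whether each library is 1 mouse, so p-values measure only the spread between these libraries.

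B cells leave the bone marrow as immature cells that carry much CD24 and CD93, and in the spleen they become follicular or marginal zone cells. Follicular cells recirculate, follow the chemokine CXCL13 into follicles through CXCR5, and carry CD23 and much IgD. Marginal zone cells stay at the border with the red pulp, carry much CD21 and CD1d, and need NOTCH2 signals from Delta-like 1 on stromal cells, with Deltex 1 among the genes that the signal switches on.

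The start regions of 4 members are shown first, because Cr2, Fcer2a and Vpreb3 fell while Cd9, which has the same pair of short motifs as Cr2, did not pass the test. The RefSeq promoter table (GRCm38.p6, 250 bases before to 50 after a start) held 6 of the 10 members, namely Cr2, Fcer2a, Dtx1, Notch2, Cd9 and Vpreb3. Capitals mark matches, on either strand, to TGGGAA (the core bound by the Notch partner RBPJ), CCCNNGGG (EBF core), ATGCAAAT (octamer) or CAGGTG (E-box).
Cr2, chr1:195176670-195176969, minus strand: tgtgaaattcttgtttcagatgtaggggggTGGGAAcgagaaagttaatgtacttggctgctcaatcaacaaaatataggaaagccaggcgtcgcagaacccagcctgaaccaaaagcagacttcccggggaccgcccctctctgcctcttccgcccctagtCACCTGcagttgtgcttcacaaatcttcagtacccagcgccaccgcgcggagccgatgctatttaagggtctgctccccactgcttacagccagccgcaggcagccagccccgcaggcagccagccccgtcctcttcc
Fcer2a, chr8:3690812-3691111, minus strand: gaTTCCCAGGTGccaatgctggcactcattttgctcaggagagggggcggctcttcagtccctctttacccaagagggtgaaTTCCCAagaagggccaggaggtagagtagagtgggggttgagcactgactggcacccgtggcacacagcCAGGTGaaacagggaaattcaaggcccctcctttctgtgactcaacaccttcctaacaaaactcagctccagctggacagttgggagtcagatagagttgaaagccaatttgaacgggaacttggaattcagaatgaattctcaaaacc
Vpreb3, chr10:75948050-75948349, plus strand: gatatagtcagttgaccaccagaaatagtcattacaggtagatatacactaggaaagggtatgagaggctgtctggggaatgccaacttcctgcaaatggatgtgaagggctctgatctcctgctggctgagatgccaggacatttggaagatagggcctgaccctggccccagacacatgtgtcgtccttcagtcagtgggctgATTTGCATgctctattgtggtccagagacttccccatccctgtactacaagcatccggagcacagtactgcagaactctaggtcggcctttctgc
Cd9, chr6:125494711-125495010, minus strand: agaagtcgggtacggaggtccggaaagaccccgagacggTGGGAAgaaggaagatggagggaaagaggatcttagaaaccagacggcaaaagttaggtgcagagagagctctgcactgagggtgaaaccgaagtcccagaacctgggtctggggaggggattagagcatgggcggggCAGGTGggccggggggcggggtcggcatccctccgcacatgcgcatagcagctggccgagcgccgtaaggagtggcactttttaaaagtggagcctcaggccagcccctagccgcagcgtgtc
The RBPJ core began at -220 from the start of Cr2 and at -211 from that of Cd9, and the E-box at -88 and -73. Of the 3 starts listed for Fcer2a, the one shown held 2 RBPJ cores and 2 E-boxes, the first core (-248) sharing 2 letters with the first E-box (-244). Of the other two, the start farthest upstream held none of the 4 motifs and the last held 1 RBPJ core. Vpreb3 held the octamer, read on the opposite strand as ATTTGCAT, at -45. The Notch2 and Dtx1 windows held an EBF core each, at -106 and -5, and no RBPJ core. Among 32851 promoters of the same length, 25.6% held the RBPJ core, 20.2% the E-box, 13.7% the EBF core and 1.74% the octamer. These matches describe letters in a window and are not binding sites.

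The RNA libraries held between 735298 and 1970950 counts. Transcripts of the mitochondrial genome took 46.2% to 66.1% of the titled control counts and 32.0% to 41.1% of the titled CT-26 counts. CPM (counts scaled to the library size) are further scaled with TMM, which sets the bulk of genes level, and a call is an adjusted p under 0.05 from edgeR's quasi-likelihood test with Benjamini-Hochberg adjustment over the 6408 genes that passed its filter on low counts. Of the 10 members, 9 passed that filter and Cd1d1 did not. The test called 5 members lower (Cr2, Fcer2a, Cxcr5, Dtx1 and Vpreb3) and 1 higher (Cd24a), while Notch2, Cd9 and Cd93 did not pass. Among all tested genes 21.6% were called lower and 21.2% higher, and with library totals in place of TMM, which moves the median of all genes up by 0.37 on the log2 scale, the split was 725 lower and 1936 higher. The median log2 fold change was -1.57 over the 9 members tested and -0.02 over all tested genes. Fewer cells of a type and less RNA per cell cannot be told apart in these bulk samples.

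**Figure D1:**
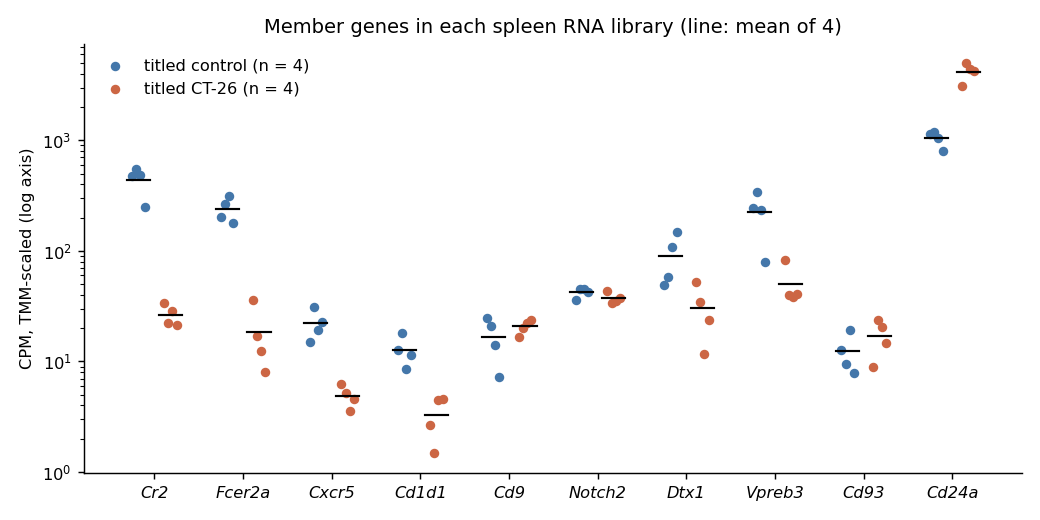
CPM on a log axis for the 10 genes in each of the 4 titled control and 4 titled CT-26 libraries, 1 point per library, with the mean of each set as a line. Cr2, Fcer2a, Cxcr5 and Cd1d1 lie lower in all titled CT-26 libraries, Cd24a lies higher, and the points of the other 5 genes overlap.

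Cr2 (ENSMUSG00000026616, chromosome 1, 194819119 to 194859024, minus strand, GRCm39) encodes the complement receptors CD21 and CD35, with which B cells and follicular dendritic cells hold opsonised antigen. Its level was 477, 544, 487 and 248 CPM in titled control 1 to 4 and 33.6, 22.1, 28.6 and 21.6 CPM in titled CT-26 1 to 4. The sets stood far apart, and titled control 4 was the lowest of its own set. The mean fell from 439 ± 131 to 26.5 ± 5.73 CPM (SD, n = 4 per set), a 16.6-fold difference, with a log2 fold change of -4.04 ± 0.27 (SE; edgeR adjusted p = 6.28e-12). The neighbouring gene of a related complement regulator, Cr1l, did not pass, at 60.5 ± 9.97 and 50.4 ± 9.77 CPM (SD, n = 4 per set).

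Fcer2a (ENSMUSG00000005540, chromosome 8, 3731737 to 3744175, minus strand) encodes CD23, the low-affinity IgE receptor. It had 204, 263, 315 and 178 CPM in titled control 1 to 4 and 36.3, 16.9, 12.5 and 7.95 CPM in titled CT-26 1 to 4. Both sets stood apart, and titled CT-26 1 was the highest of its set. The mean fell 13.03-fold, from 240.0 ± 61.3 to 18.4 ± 12.4 CPM (SD, n = 4 per set), with a log2 fold change of -3.67 ± 0.32 (SE; edgeR adjusted p = 6.59e-09).

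Cxcr5 (ENSMUSG00000047880, chromosome 9, 44423084 to 44473174, minus strand), the receptor that guides B cells and follicular helper T cells to CXCL13, rested on few counts: 14, 43, 18 and 38 in titled control 1 to 4 against 7, 7, 4 and 4 in titled CT-26 1 to 4. In CPM these were 14.95, 31.2, 19.3 and 22.9 against 6.19, 5.16, 3.58 and 4.54, again without overlap. The log2 fold change was -2.17 ± 0.38 (SE; edgeR adjusted p = 3.71e-05). A stretch of 110 exonic bases is shared with Bcl9l on the opposite strand, and the counting did not use strand. Notch2 and Cd9 share 541 and 218 exonic bases with gene models that have 0 counts. Of 7 genes listed for follicular helper T cells, 2 could be tested. Both were lower as well, Icos at a log2 fold change of -2.48 and Sh2d1a at -1.54. Among all tested genes 21.6% were lower. The sets of Sh2d1a overlapped, with 20.3 CPM in titled CT-26 1 and 16.2 CPM in titled control 4. Below the filter, Bcl6 and Cd40lg of that list had lower means in the titled CT-26 set, and Tox2 and Pdcd1 had higher ones. The part of follicular helper T cells in the Cxcr5 difference was not tested, nor that of other T cells in Icos and Sh2d1a. The ligand gene Cxcl13 did not pass, with 20.3 ± 11.6 and 31.2 ± 4.96 CPM (SD, n = 4 per set).

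Cd1d1 (ENSMUSG00000028076, chromosome 3, 86903141 to 86906748, minus strand), which presents lipids to natural killer T cells and is high on marginal zone B cells, had 12, 25, 8 and 19 counts in titled control 1 to 4 and 3, 2, 5 and 4 in titled CT-26 1 to 4. In CPM this was 12.7 ± 3.995 and 3.28 ± 1.49 (SD, n = 4 per set), and the sets did not overlap. It failed the filter on low counts, and without that filter its log2 fold change was -1.92 ± 0.52 (SE; edgeR adjusted p = 0.00237). Its near-identical neighbour Cd1d2 had 17 counts over all 8 libraries, and counts of this pair are uncertain. Sets without overlap were thus seen for 4 members in the lower direction and 1 in the higher, against 18.9% and 19.7% of tested genes.

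The tetraspanin gene Cd9 (ENSMUSG00000030342, chromosome 6, 125437229 to 125471754, minus strand), carried by marginal zone and B1 cells and also by platelets and macrophages, had 24.6, 21.0, 14.0 and 7.22 CPM in titled control 1 to 4 and 16.8, 19.9, 22.4 and 23.8 CPM in titled CT-26 1 to 4. The sets overlapped, and the log2 fold change of 0.34 ± 0.34 (SE) did not pass (edgeR adjusted p = 0.451). Of 8 platelet genes, 3 could be tested and none was called, Pf4, Ppbp and Itgb3 having log2 fold changes of 1.11, 1.13 and 1.53. Of the untested ones only Itga2b had sets without overlap, and it was higher, as were 19.7% of tested genes. The summed level of the 8 ran from 31.2 to 92.0 CPM in the titled control set and from 27.4 to 208 CPM in the titled CT-26 set. Of 10 macrophage and monocyte genes, all tested, 4 were lower and 1 higher, beside 21.6% and 21.2% of all tested genes. The part of platelets or macrophages in the level of Cd9 was not tested.

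The receptor gene Notch2 (ENSMUSG00000027878, chromosome 3, 97920843 to 98057677, plus strand) was nearly even. It had 36.3, 44.9, 45.1 and 42.7 CPM in titled control 1 to 4 and 43.3, 33.9, 34.9 and 37.5 CPM in titled CT-26 1 to 4, with a log2 fold change of -0.18 ± 0.24 (SE; edgeR adjusted p = 0.569). With library totals in place of TMM the value was 0.17, so its direction was not fixed. Dtx1 (ENSMUSG00000029603, chromosome 5, 120818267 to 120849992, minus strand), the ubiquitin ligase gene that Notch signals induce, was lower on average but spread widely. It had 49.1, 58.0, 107 and 149 CPM in titled control 1 to 4 and 52.2, 34.6, 11.6 and 23.8 CPM in titled CT-26 1 to 4, so that titled CT-26 1 exceeded titled control 1. The mean fell from 90.8 ± 46.3 to 30.6 ± 17.2 CPM (SD, n = 4 per set), with a log2 fold change of -1.57 ± 0.44 (SE; edgeR adjusted p = 0.0116). That call was lost with library totals in place of TMM, at -1.22 with an edgeR adjusted p of 0.051.

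Calls among other genes of the Notch pathway ran both ways. Of 29 listed genes, 12 could be tested, 3 were lower, 1 was higher and 8 did not pass, beside 21.6% lower and 21.2% higher among all tested genes. The median of the 12 was -0.06 on the log2 scale, and that of all tested genes -0.02. Lower were the coactivator Maml2 (-1.67 ± 0.30 SE, edgeR adjusted p = 4.15e-05), the glycosyltransferase Lfng that tunes ligand choice (-1.07) and the target gene Hes1 (-1.34). The receptor-cleaving protease Adam10 was higher, from 50.01 ± 10.3 to 95.3 ± 29.05 CPM (SD, n = 4 per set), which is 0.92 on the log2 scale. Rbpj, the DNA-binding partner of the receptor, had 10.1 ± 3.43 and 9.65 ± 2.56 CPM (SD, n = 4 per set) and did not pass. The ligand Dll1 had 30 counts over all libraries, and the targets Hes5 and Nrarp were listed at 0 in each library. Of 13 further genes of marginal zone cells, 4 could be tested. Of these Plac8, also a monocyte gene, fell with a log2 fold change of -1.65 and the scavenger receptor Cd36 rose by 0.81. Plscr1 and Tcf4 did not pass, at 0.75 and -0.23. Among all tested genes 21.6% were lower and 21.2% higher. The part of other cell types in the Cd36 difference was not tested. S1pr3, a receptor that holds marginal zone cells in place, was below the filter, with 15, 20, 11 and 16 counts against 6, 10, 2 and 1. Asb2, Fcrl5, Nebl and Tm6sf1, also below the filter, were lower without overlap too, as were 18.9% of tested genes. No untested gene of this list was higher without overlap.

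The 3 genes of immature B cells went different ways. Vpreb3 (ENSMUSG00000000903, chromosome 10, 75778891 to 75785491, plus strand), whose protein binds newly made immunoglobulin chains, had 243, 343, 232 and 78.8 CPM in titled control 1 to 4 and 83.1, 39.8, 38.4 and 40.9 CPM in titled CT-26 1 to 4. Titled control 4 and titled CT-26 1 made the sets overlap. The mean fell 4.44-fold, from 224 ± 109 to 50.6 ± 21.7 CPM (SD, n = 4 per set), with a log2 fold change of -2.14 ± 0.41 (SE; edgeR adjusted p = 0.00121). Cd93 (ENSMUSG00000027435, chromosome 2, 148278560 to 148285483, minus strand), a marker of transitional B cells that endothelium and myeloid progenitors also carry, had 12.8, 9.42, 19.3 and 7.82 CPM in titled control 1 to 4 and 8.84, 23.6, 20.6 and 14.8 CPM in titled CT-26 1 to 4. Its sets overlapped, and the log2 fold change of 0.52 ± 0.38 (SE) did not pass (edgeR adjusted p = 0.271). The summed level of 8 endothelial genes, which bears on Cd93, spanned 97.2 to 180 CPM in the titled control set and 73.4 to 131 CPM in the titled CT-26 set. Most of that sum was Pecam1, at 126 ± 44.0 and 67.3 ± 19.9 CPM (SD, n = 4 per set). Cdh5, Kdr, Tek, Emcn and Egfl7 had 11, 10, 2, 2 and 8 counts over all libraries. Of the 3 that could be tested only Pecam1 was lower (-0.91), with sets that overlapped, beside 21.6% lower among all tested genes. The genes of neutrophil precursors, given with Cd24a, were all called higher where tested, 8 of 8, beside 21.2% of all tested genes. The part of either cell type in Cd93 was not tested.

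Cd24a (ENSMUSG00000047139, chromosome 10, 43454280 to 43460261, plus strand), the gene of the heat stable antigen, went up. Its level was 1128, 1199, 1048 and 799.9 CPM in titled control 1 to 4 and 3114, 4947, 4390 and 4200.4 CPM in titled CT-26 1 to 4. Each titled CT-26 library stood above each titled control library. The mean rose 3.99-fold, from 1044 ± 174 to 4163 ± 768 CPM (SD, n = 4 per set), with a log2 fold change of 1.996 ± 0.24 (SE; edgeR adjusted p = 7.94e-08). Red cell and neutrophil precursors also carry CD24, and their markers were higher too. All 9 tested genes of 10 listed for erythroid precursors were called higher, their median being 2.27 on the log2 scale, and their summed level was 771 to 921 CPM in the titled control set and 2836 to 5264 CPM in the titled CT-26 set. All 8 tested genes of 9 listed for neutrophil precursors were called higher, with a median of 3.72 and a summed level of 187 to 363 CPM against 1537 to 4129 CPM. Over all tested genes the share called higher was 21.2%. The part of red cell and neutrophil precursors in the Cd24a difference was not tested. Of 13 other genes of immature and transitional B cells, 6 could be tested. Il7r, Cd38 and Spn were lower, at -1.78, -1.49 and -1.17, and Myb, Bcl2l11 and Sox4 did not pass. The share lower over all tested genes was 21.6%. Il7r and Spn are carried by T cells as well. The recombination genes Rag1 and Rag2 were listed at 0 in every library, and the surrogate light chain genes Vpreb1 and Igll1 had 5 and 2 counts in all.

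Per kilobase of exon, the order of levels in the titled control set was Cd24a (405 ± 67.4 RPKM), Vpreb3 (261 ± 127), Fcer2a (77.6 ± 19.8), Cr2 (53.9 ± 16.0), Dtx1 (17.2 ± 8.78), Cd9 (8.17 ± 3.77), Cxcr5 (6.63 ± 2.06), Cd1d1 (4.96 ± 1.55), Notch2 (3.92 ± 0.38) and Cd93 (1.85 ± 0.76, all SD, n = 4). The libraries of adjacent genes overlapped in this order except for Cr2 over Dtx1 and Notch2 over Cd93. In the titled CT-26 set Cd24a (1613 ± 298 RPKM) and Vpreb3 (58.9 ± 25.3) still led, Cd9 (10.1 ± 1.51) was the third, and Cr2 (3.25 ± 0.70) had moved from rank 4 to rank 7. Cd1d1 (1.28 ± 0.58) then had the lowest mean. In this set too the libraries of adjacent genes overlapped, except for Cd24a over Vpreb3 and Vpreb3 over Cd9.

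B cell genes as a whole were lower, which raises the question whether the members differed from them. For this, all libraries were scaled to the mean log2 count of 8 pan B cell genes, among them Cd79a, Cd79b, Ms4a1, Pax5 and Ebf1, and the edgeR test was run again over all genes. On the TMM scale 7 of these 8 were lower, beside 21.6% of all tested genes, and Pax5 did not pass (-0.46). Their median log2 fold change was -1.88, and their summed level was 1405 to 2016 CPM for titled control and 317 to 670 CPM for titled CT-26 libraries. Cr2 and Fcer2a fell beyond the reference. Cr2 had a log2 fold change of -2.14 ± 0.36 (SE, edgeR adjusted p = 4.94e-07) and Fcer2a of -1.85 ± 0.37 (SE, edgeR adjusted p = 1.16e-05) relative to it, and 88 of the 6408 tested genes, 1.37%, were lower on this scale. Library by library, the log2 count of Cr2 was 1.496, 1.57, 1.27 and 0.81 above the reference mean in titled control 1 to 4. It had values of -1.01, -0.69, -0.39 and -1.24 in titled CT-26 1 to 4. Fcer2a went from between 0.27 and 0.64 above the reference mean to values between -2.62 and -0.90.

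Cxcr5, Dtx1 and Vpreb3 did not differ from the pan B cell reference by the test, with log2 fold changes of -0.34 ± 0.48, 0.19 ± 0.39 and -0.28 ± 0.35 (SE) and edgeR adjusted p of 0.507, 0.641 and 0.444. Failing the test does not show that these genes moved with the reference. Notch2, Cd9, Cd93 and Cd24a were higher relative to the reference, by 1.69, 2.26, 2.50 and 3.97, as were 84.3% of tested genes, for which the median was 1.86. The reference is not uniform: against it Ms4a1 was lower (-2.08) and Pax5 and Ebf1 were higher (1.31 and 1.06). With Cd79a and Cd79b alone as the reference, Cr2 and Fcer2a had values of -2.08 and -1.79 and kept their calls.

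**Figure D2:**
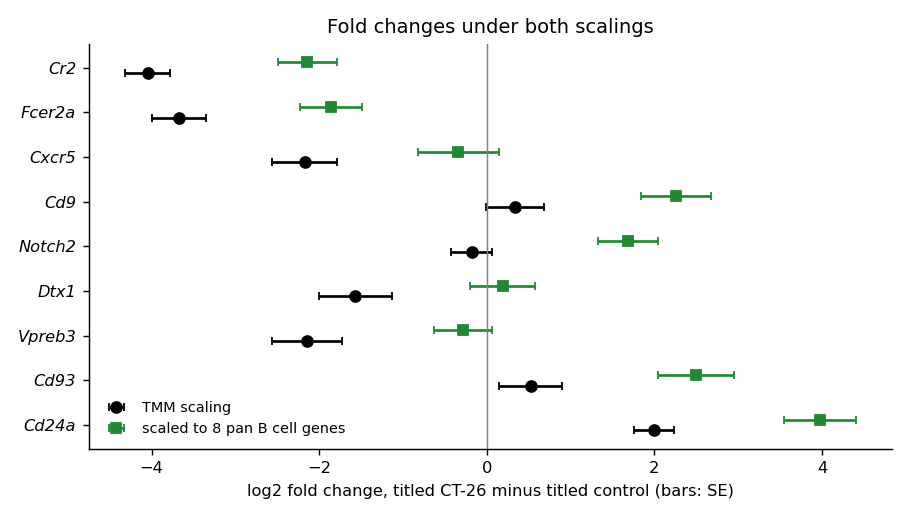
Log2 fold change with SE for the 9 tested genes, under TMM scaling (circles) and scaled to 8 pan B cell genes (squares), from 4 libraries per set. Cr2 and Fcer2a are the members that stay below 0 by more than their SE under both scalings and pass both tests, and Cd24a is above 0 under both.

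**Figure D3:**
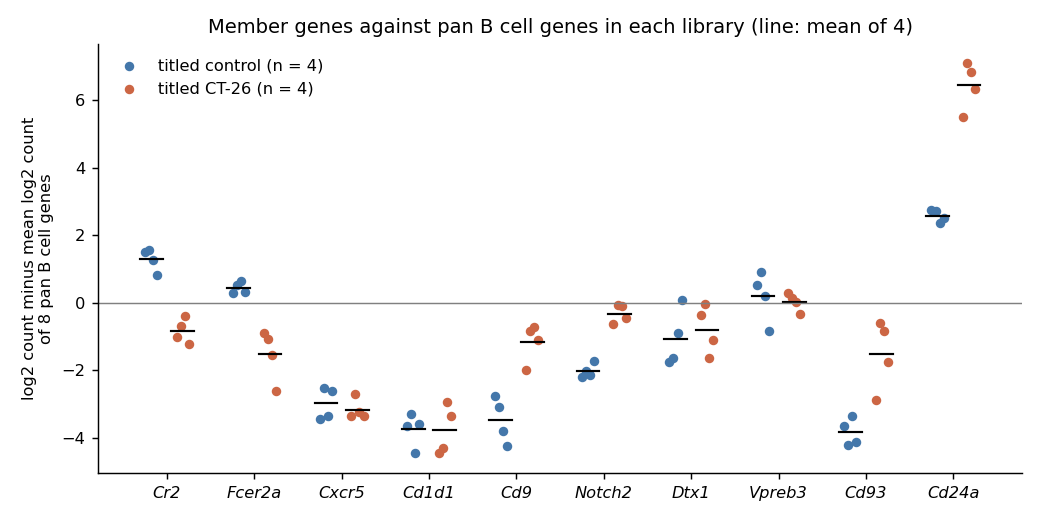
Log2 count of each gene minus the mean log2 count of 8 pan B cell genes in the same library, 1 point per library, with the mean of 4 as a line. Cr2 and Fcer2a drop from above 0 in every titled control library to below 0 in every titled CT-26 library, whereas Cxcr5, Cd1d1, Dtx1 and Vpreb3 overlap.

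Other follicular genes were mostly lower. Of 14 listed, all were tested, 12 were lower and 2 (Ccr7 and Cd55) did not pass, with a median log2 fold change of -1.92. Among all tested genes 21.6% were lower. Ighd, the heavy chain gene of IgD, fell from 442 ± 96.9 to 28.6 ± 6.78 CPM (SD, n = 4 per set), and its log2 difference was -3.94 ± 0.25 (SE; edgeR adjusted p = 6.04e-12). The class II modulator H2-Ob had -3.30 and the B cell scaffold gene Bank1 -3.13. Relative to the pan B cell reference, 4 of the 14 were lower, among them Ighd at -2.02, H2-Ob at -1.38 and Bank1 at -1.20. Another 4 were higher, namely Cd55 at 1.68, Ccr7 at 1.10, Cd83 at 0.94 and Tnfrsf13c at 0.83. The median of the 14 relative to the reference was -0.08, and that of all tested genes 1.86. On that scale 1.37% of all tested genes were lower and 84.3% were higher. Cd81, a tetraspanin of the CD21 coreceptor complex, had 149 ± 36.9 and 141 ± 41.8 CPM (SD, n = 4 per set) and did not pass. The 4 tested genes of follicular dendritic cells and follicle stroma, Cxcl13, Clu, Mfge8 and Vcam1, did not pass, at 0.63, 0.53, 0.54 and 0.39, and the summed level of that list was 424 to 629 CPM in the titled control set and 639 to 779 CPM in the titled CT-26 set. Most of that sum was Vcam1, which macrophages also carry, at 369.5 to 525 CPM for titled control and 518 to 668 CPM for titled CT-26 libraries, ranges that overlap. Of 9 germinal centre genes only Neil1 could be tested, and it did not pass (0.28).

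**Figure D4:**
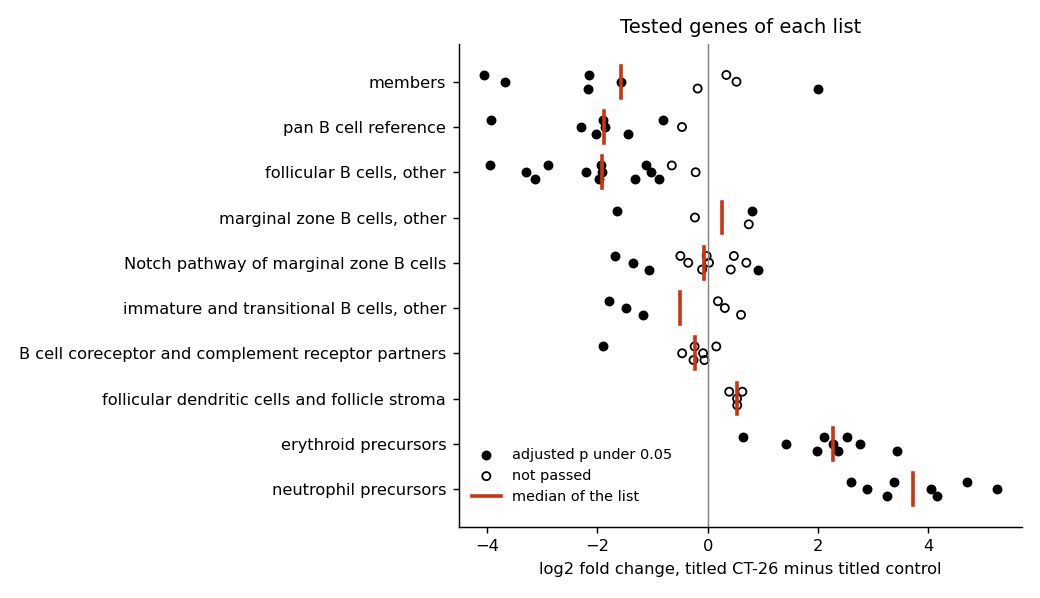
Log2 fold change of each tested gene, 1 point per gene, filled where the adjusted p is under 0.05, with the median of each list as a red line. The top row holds the 9 tested members, the follicular list has its median at -1.92 and the Notch pathway list at -0.06.

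Ratios of 2 genes within a library need no scaling. The log2 ratio of Fcer2a to Cr2 counts was -0.84 ± 0.35 in the titled control set and -0.70 ± 0.69 in the titled CT-26 set (SD, 4 libraries each), and the two-sided exact permutation test gave p = 0.771. Its sets overlapped, with values of 0.11, -0.38, -1.16 and -1.38 in titled CT-26 1 to 4. Failing the test does not show that the ratio was equal. Cr2 is carried by B cells at large and by follicular dendritic cells, so the ratio does not measure the balance of follicular and marginal zone cells. The log2 ratio of Ighd to Ighm, which is high where follicular cells prevail over marginal zone and antibody-forming cells, was -3.52 ± 0.65 and -7.53 ± 0.37 (SD, n = 4 per set). Its sets did not overlap, the exact two-sided permutation p of 0.0286 is the smallest that 70 assignments allow, and adjusted over the 2 ratios it was 0.0571. The Ighm level itself was 5058 ± 1110 and 5353 ± 1223 CPM (SD, n = 4 per set) and did not pass in the edgeR test. Ighm counts hold membrane and secreted transcripts alike.

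**Figure D5:**
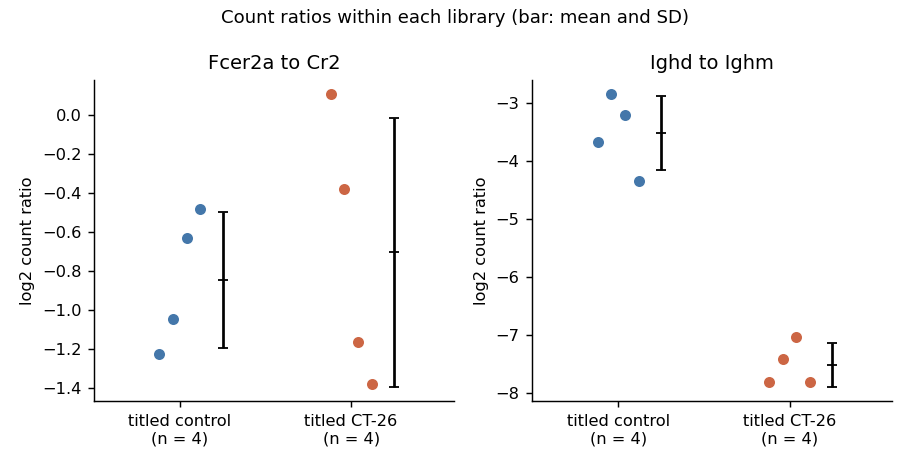
Log2 ratio of raw counts within each library, 1 point per library, with mean and SD beside the points, for 4 titled control and 4 titled CT-26 libraries. Fcer2a to Cr2 overlaps between the sets, and Ighd to Ighm spans -4.34 to -2.85 for titled control and -7.82 to -7.04 for titled CT-26 libraries.

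The genes nearest in pattern were sought among tested genes with a mean log2 CPM of at least 5, by the root mean square distance between profiles over the 8 libraries. For Cr2 they were Ighd, Gzma and P2ry10b, at distances of 0.17, 0.26 and 0.41 on the log2 scale. For Fcer2a they were Cr2, Cd52 and Gimap4, at 0.46, 0.48 and 0.51, and for Cd24a they were Dcaf6, Mxd1 and Spc25, at 0.14, 0.15 and 0.18. Ighd had 451, 512, 503 and 303 CPM in titled control 1 to 4, the last being the lowest, as for Cr2.

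The alignment names carry sequencing lanes, and lanes 1 and 2 each hold libraries of both sets. Within lane 1 (1 titled control and 2 titled CT-26 libraries) the log2 ratio of mean CPM, with 1 added, was -4.42 for Cr2, -4.55 for Fcer2a and 2.12 for Cd24a. Within lane 2 (2 and 1 libraries) it was -3.39, -2.37 and 1.69. All 6 called members kept their direction in both lanes, while Cd93, which was not called, had -0.01 and -0.20. Lanes 3 and 4 hold 1 library each.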

How the data were processed

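Spleen RNA of 8 libraries was analysed, and the TCR and BCR tables were not used here. The authors deposited raw counts of fragments per gene, which featureCounts 2.0.1 assigned to the GENCODE M29 annotation of GRCm39, per the file headers, with no strand option and no option to count reads that match several genes or places. Per the submitters' processing notes, Trimmomatic 0.39 and STAR 2.7.10a were used, and GRCm39 and GRCm38 are listed. Symbols came from a reference table that matched 52081 of 55414 genes. Gene coordinates are those of the deposited tables, and promoter coordinates are GRCm38.p6.

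The members, lists and tests were chosen with earlier results of these data known. Some genes of the lists are not reported here. The test was the robust quasi-likelihood one of edgeR 4.0.16 in R 4.3.3, after filterByExpr and TMM, at a Benjamini-Hochberg adjusted p of 0.05. SE is the log2 fold change over the root of F. The pan B cell scaling replaces TMM by the mean log count (0.5 added) of 8 genes, whose own error enters only through the spread between libraries. Ratios also have 0.5 added to counts, and RPKM divides TMM-scaled CPM by exon length. Named are all members, up to 4 genes of smallest p per list and 3 nearest profiles for Cr2, Fcer2a and Cd24a, and any other list gene named was chosen after its values were seen. In simulated counts over 6408 genes with 200 changed, edgeR recovered 46% of the genes changed 2-fold and 99% of those changed 4-fold, and 10 of its 155 calls were false. The simulation raised and lowered equal numbers of genes, while the test on the real counts called 42.8% of genes. Its rates therefore do not cover errors of scaling. Libraries of a set all differed beyond sampling noise (chi-square per degree of freedom at least 3.70). Alternatives were DESeq2 1.42.0, library totals, other filters, lane, replicate number and leaving out each library. Ratios and plots used scipy 1.17.1 and matplotlib 3.10.9.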

Additional observations from a re-analysis of the deposited data

Results flagged for a closer look

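Within the 4 titled CT-26 libraries, titled CT-26 1 stood apart for Vpreb3, at 83.1 CPM against 38.4 to 40.9 CPM in the other three, a gap of 0.945 of the set's range, past Dixon's 95% limit for 4 values. This was 1 flag among 24 sets of 4 values checked, and chance flags about 1 in 20. Without titled CT-26 1 the log2 fold change of Vpreb3 was -2.47 in place of -2.14.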

How the results depend on the processing

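Across the alternatives, 5 members were called lower in most fits (from 4 to 6) and 1 higher in all of them. With library totals in place of TMM, 725 genes were lower, Notch2 had a log2 fold change of 0.17 (edgeR adjusted p = 0.685) and Dtx1 lost its call. With the lane as a factor Cd93 had -0.063, uncalled in both fits. Leaving out 1 library at a time gave 5 to 6 members lower, 1 higher, and 1236 to 1486 genes higher and 1251 to 1462 lower, and relative to the pan B cell reference 2 members lower and 4 higher each time. Cr2 then ranged from -4.23 to -3.93, Fcer2a from -4.19 to -3.45 and Cd24a from 1.89 to 2.13. Dtx1 ranged from -1.93 to -1.19 with edgeR adjusted p up to 0.0479, and relative to the reference from -0.076 to 0.72, below 0 also without titled control 1 (-0.015) and titled control 2 (-0.0011). The difference in the Fcer2a to Cr2 ratio lay between -0.13 and 0.37 and that in the Ighd to Ighm ratio between -4.28 and -3.79. The first was -0.13 without titled CT-26 1, and the second had an exact permutation p, adjusted over both ratios, of 0.114 each time. Cd1d1 passed the filter when titled CT-26 1, 3 or 4 was left out, at -1.90, -2.18 and -2.16. The labels do not say that replicate numbers pair the libraries. Residuals of equal numbers correlated between -0.0914 and 0.0764, which cannot decide whether they do, since unequal numbers were not compared. With a replicate block 4 members were lower, Dtx1 having -1.53 with an edgeR adjusted p of 0.0681, and 1328 genes were lower and 1340 higher. Counts of 3 correspond to between 1.80 and 3.41 CPM, and the titled CT-26 counts of Cd1d1 and Cxcr5 lay between 2 and 7. These limits cover counting error only.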
